A study of Mus musculus with 7 samples.

Results

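Genes of the interstitial matrix, of the metalloproteinases that cut it and of their inhibitors were examined in glomeruli, the capillary tufts where the kidney filters blood, of mice with and without knockdown of Shroom3. All symbols starting with Col, Lama, Lamb, Lamc, Mmp, Timp or Adamts and a number were taken, the 8 chains Col4a1 to Col4a5, Lama5, Lamb2 and Lamc1 of the glomerular basement membrane were left out, and Fn1, Sparc, Dcn and Postn were added. This gave 74 of the 12958 gene symbols measured. They comprised 37 collagen chains, 8 laminin chains, 8 Mmp genes, 14 Adamts genes, 2 Timp genes and the 4 added glycoprotein genes. The 74th, Col4a3bp, matches the pattern of letters only: it encodes a ceramide transfer protein and no collagen. Symbols such as Timp1, Mmp9 and Lum are not among the 12958 gene symbols, so they could not be analysed here.

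RNA sequencing was done on 7 libraries of isolated glomeruli from male BALB-C mice aged 14 weeks, 3 labelled Shroom3 knockdown and 4 control. Every mouse, controls included, received doxycycline by food and by water, starting at 8 weeks of age and lasting 6 weeks. Control animals were littermates that lack the siRNA transgene. No source used here names the promoter or cell type that drives the transgene. The design text counts animals, so each library is taken as 1 animal.

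Interstitial collagens are made as procollagens, folded as triple helices, trimmed by proteinases of the Adamts and Bmp1 families and laid down as fibrils, networks or beaded filaments. Mmp enzymes are zinc-dependent and cut collagens, laminins and cell surface proteins, and Adamts enzymes cut procollagens or proteoglycans. Tissue inhibitors of metalloproteinases, the Timp proteins, block the active site of these enzymes. In the kidney the mesangium, the vessel walls and the interstitium hold such matrix, and its excess is known as fibrosis or glomerulosclerosis.

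The values are log2 expression per gene symbol as deposited, between 2.32 and 17.2, with library medians of 9.15 to 9.16. Read counts were not used here, so depth and counting error are unknown, and levels of different genes are not compared because the values are not known to be scaled to gene length. For Shroom3 itself no decrease was detected (log2 fold change -0.19, SE 0.11; limma, adjusted p = 0.417), so the groups are named as labelled. Titles came in 2 styles, with 5 libraries titled G (2 knockdown, 3 control) and 2 titled CB6 (knockdown replicate 3 and control replicate 4). Across genes, the deviation of 1 CB6 library from its group mean mirrored that of the other (r = -0.96). The 2 CB6 libraries are thus not independent of each other, while the knockdown minus control difference within the pair is not fixed by this. Calls are therefore also given with title style as a covariate and without the CB6 pair. In the libraries titled G, 107 genes differed only by fixed library offsets, as a filled-in value would; Adamts10 is among them, and its values are given no weight.

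Of the 74 genes, 2 passed the test and both fell in knockdown glomeruli: Col6a6, a chain of beaded-filament collagen VI, and Timp3, a matrix-bound inhibitor of metalloproteinases. The other 72 did not pass, none of them being called higher. Over all genes tested 3.02% passed (limma, p adjusted by Benjamini-Hochberg over all genes, under 0.05), against 2.7% of the matrix genes, so that the share called was near the background. Of all genes 2.02% were called lower and 0.996% higher. The median log2 fold change was -0.04 over the 74 genes and 0.02 over all genes, and 44 of the 74 had a negative value (59.5%) against 43.8% of all genes. Knockdown libraries lay below every control library for 10 of the 74 genes (13.5%; 7.55% of all genes) and above every control for 5 (6.76%; 10.8% of all genes), 1 of them being Adamts10. For 48 of the 74 (64.9%) the absolute log2 fold change was under 0.2, against 74% of all genes.

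**Figure D1:**
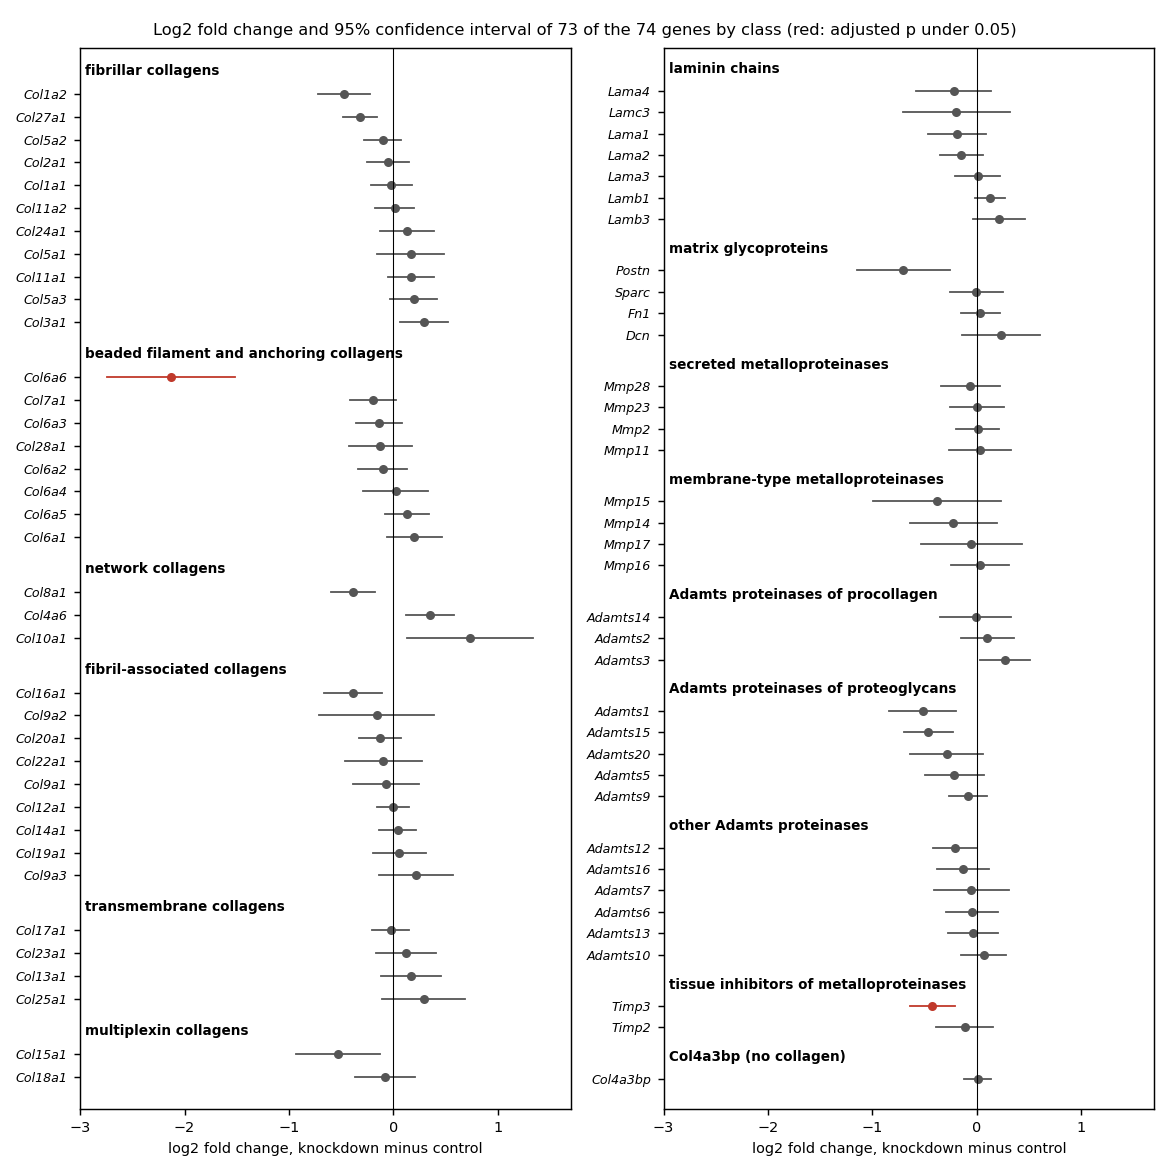
Log2 fold change (horizontal axis, knockdown minus control) with its 95% confidence interval for 73 of the 74 genes, grouped by class; red marks an adjusted p under 0.05. Most genes lie near 0, with Col6a6 at -2.13 and Timp3 at -0.42 in red.

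Col6a6 had the largest difference of the 74 genes. Collagen VI forms beaded microfilaments between basement membranes and fibrillar matrix, and the alpha 6 chain is one of 3 chains (alpha 4 to alpha 6) that can take the place of the alpha 3 chain. Values were 7.31, 6.40 and 6.52 in the 3 knockdown libraries, against control values of 8.53, 8.99, 8.59 and 9.38. All knockdown libraries were thus below all controls, by more than the spread of 0.49 and 0.40 (SD) within the groups. Mean log2 expression was 8.87 ± 0.40 (SD, n = 4) for controls against 6.74 ± 0.49 (SD, n = 3) for knockdown, giving a log2 fold change of -2.13 (SE 0.27, 95% CI -2.74 to -1.52) or 4.38-fold lower (limma, adjusted p = 0.00536). It was -1.85 within the libraries titled G and -2.86 within the CB6 pair. Col6a6 passed with title style as a covariate (limma, adjusted p = 0.0118) and with each library left out in turn, and did not pass without the CB6 pair (limma, adjusted p = 0.0883).

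The libraries stood in the same order for Col6a6 as for the mean over 16 proximal tubule markers, in which 7 markers fell and 1 rose. That mean was 13.08, 12.67 and 12.79 in the knockdown libraries and 13.32, 13.62, 13.48 and 13.67 in the controls. The summed level of these markers ran from 17.81 to 18.15 (log2 of the sum) in knockdown and from 18.03 to 18.40 in control libraries, and none of the 16 was at 0. Cyp2e1 (-3.26) and Kap (-2.19) were among the markers called lower, while Lrp2 (-0.21) and Slc34a1 (-0.35) were not called. Over all genes, 13 had their 7 libraries in this same order (0.1%), and Col6a6 was the 1 matrix gene among them. Part of that order is shared by any gene lower in every knockdown library, as 7.55% of all genes were. The part of tubule RNA in the Col6a6 result was not tested. In such whole-tissue RNA, fewer cells of a type and less RNA per cell cannot be told apart.

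Col6a6 lies on GRCm38 chromosome 9 (105687809 to 105828160, minus strand) directly beside Col6a5 and Col6a4 on the same strand, with 27917 bases between Col6a6 and Col6a5, 28810 between Col6a5 and Col6a4, and no protein-coding gene between them. Col6a5 had 7.98, 8.16 and 8.13 in knockdown and 7.94, 8.04, 7.97 and 7.90 in control libraries, with overlapping groups (log2 fold change 0.13, 95% CI -0.08 to 0.34). Col6a4 overlapped as well (log2 fold change 0.02, 95% CI -0.29 to 0.33). The difference between Col6a6 and Col6a5 within a library was -0.67, -1.76 and -1.61 in knockdown and 0.60, 0.95, 0.62 and 1.49 in control libraries. This difference fell by 2.26 on the log2 scale (two-sided exact permutation p = 0.0286, the smallest that 35 splits allow). Col6a6 alone separated the groups (7.31 against 8.53), and Col6a5 only ran from 7.90 to 8.16. The Col6a6 values thus fixed this p, which adds no support to them. The permutation p was 0.0857 when adjusted over 3 such pairs, which were chosen after their values were seen. All libraries were taken as exchangeable, whatever their title style.

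The bases just upstream of the 3 neighbouring starts are shown because 1 of these genes fell while no change was detected in the other two. The windows of 150 bases are from RefSeq's GRCm38.p6 promoter table, which held 50 of the 74 genes, at chr9:105828161-105828310, chr9:105960644-105960793 and chr9:106096784-106096933. Each is on the minus strand and ends before both the RefSeq and the GENCODE start. Capitals mark matches, on either strand, to GGGCGG (the GC box) or CCAAT, and TATAAA was searched as well; the motifs do not overlap in these windows.
Col6a6: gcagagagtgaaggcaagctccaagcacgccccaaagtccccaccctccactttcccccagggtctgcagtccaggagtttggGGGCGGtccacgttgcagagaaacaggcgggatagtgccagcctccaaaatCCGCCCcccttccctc
Col6a5: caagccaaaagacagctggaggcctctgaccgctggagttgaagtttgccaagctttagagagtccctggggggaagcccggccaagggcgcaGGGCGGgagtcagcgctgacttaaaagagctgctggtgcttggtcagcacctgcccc
Col6a4: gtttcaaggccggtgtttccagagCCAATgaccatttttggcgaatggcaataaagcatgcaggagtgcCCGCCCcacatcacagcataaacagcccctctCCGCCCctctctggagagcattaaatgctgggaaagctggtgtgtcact
The GC box was found 2 times for Col6a6, 1 time for Col6a5 and 2 times for Col6a4, and CCAAT was found 1 time, for Col6a4. None held TATAAA within these 150 bases. The last base lay 76 (Col6a6), 1 (Col6a5) and 93 (Col6a4) bases before the RefSeq start. Bases between a window and that start were not searched. Of all 32851 windows of that length ending at a RefSeq start, 28.6% held the GC box, 24.5% CCAAT and 7.57% TATAAA. Those shares are for windows placed closer to the start than the Col6a6 and Col6a4 windows. These matches are letters in a window and no measured binding.

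The classical chains of collagen VI, Col6a1, Col6a2 and Col6a3, had overlapping groups. Col6a1 differed by 0.20 (95% CI -0.06 to 0.47), Col6a2 by -0.10 (95% CI -0.34 to 0.13) and Col6a3 by -0.13 (95% CI -0.35 to 0.09). Col7a1, the chain of anchoring fibrils, was at 9.14, 8.79 and 9.08 in knockdown and at 9.17, 9.24, 9.25 and 9.15 in control libraries. Its groups did not overlap, yet it was far from passing (log2 fold change -0.20; limma, adjusted p = 0.321). Of the 8 genes of beaded filaments and anchoring fibrils, Col6a6 alone passed.

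**Figure D2:**
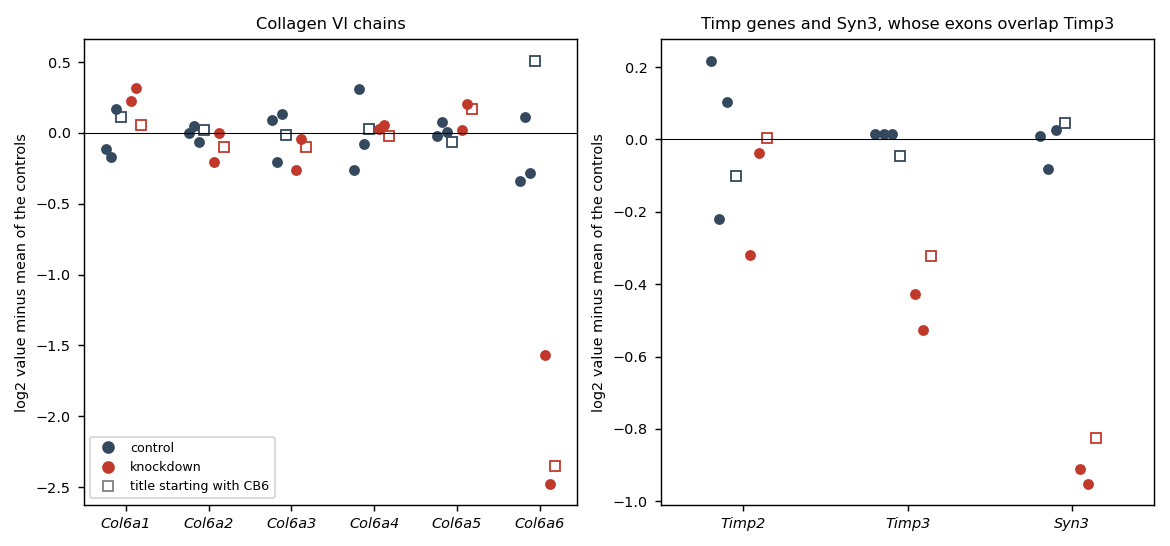
Log2 value of each library minus the mean of the 4 control libraries (vertical axis) for the 6 collagen VI chains (left) and for Timp2, Timp3 and Syn3 (right); open squares are libraries titled CB6. Knockdown libraries stand apart from the controls for Col6a6, Timp3 and Syn3.

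None of the 11 fibrillar collagen genes, which form the tensile fibrils of connective tissue, passed, and their median log2 fold change was 0.01. Col1a2, the alpha 2 chain of type I collagen, had 10.61, 10.47 and 10.53 in knockdown and 11.13, 10.69, 11.13 and 11.08 in control libraries. All knockdown libraries were lower, with control replicate 2 close to them. Its log2 fold change was -0.47 (SE 0.11; limma, adjusted p = 0.0594), and without control replicate 2 it passed at -0.58 (limma, adjusted p = 0.00468). It also passed in the upper part of genes by mean (limma, adjusted p = 0.0428) and without filled-in genes (limma, adjusted p = 0.0495).

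Col1a1, whose product pairs with that of Col1a2 in the type I trimer, had 7.94, 8.02 and 7.94 in knockdown and 7.92, 8.06, 7.96 and 8.02 in control libraries, a log2 fold change of -0.02 (95% CI -0.22 to 0.18). The difference between the 2 chains within a library was 3.02 ± 0.27 (SD, n = 4) for controls against 2.57 ± 0.11 (SD, n = 3) for knockdown (two-sided exact permutation p = 0.0857, and 0.114 adjusted over the 3 pairs). An unequal response of the type I chains was therefore not established.

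Col27a1, a fibrillar chain of cartilage and other tissues, had 10.69, 10.64 and 10.77 in knockdown and 10.88, 11.07, 11.15 and 11.00 in control libraries, again with no overlap. Its log2 fold change of -0.32 (SE 0.07) missed the threshold (limma, adjusted p = 0.0552). It passed at -0.37 without control replicate 1 (limma, adjusted p = 0.0314), and also when only the upper part of genes by mean was tested (limma, adjusted p = 0.0437). Col3a1, the type III chain of distensible tissues, pointed the other way, with 8.14, 8.40 and 8.29 in knockdown and 7.92, 7.99, 8.10 and 7.92 in control libraries (log2 fold change 0.30, 95% CI 0.07 to 0.53; limma, adjusted p = 0.164). The type V chains that join type I fibrils were at 0.16 (Col5a1), -0.10 (Col5a2) and 0.19 (Col5a3), each with a 95% CI that includes 0. Type II and type XI chains, known from cartilage, lay between -0.05 and 0.17.

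Network-forming collagens pointed in both directions. Col8a1, a short chain of vessel walls and endothelial matrix, had 9.18, 9.43 and 9.28 in knockdown and 9.50, 9.77, 9.71 and 9.76 in control libraries (log2 fold change -0.39; limma, adjusted p = 0.0676), and it passed at -0.45 without control replicate 1 (limma, adjusted p = 0.0387). Col4a6, a basement membrane chain outside the mature glomerular membrane, had 7.44, 7.68 and 7.56 in knockdown and 7.22, 7.24, 7.22 and 7.16 in control libraries (log2 fold change 0.35; limma, adjusted p = 0.103). Neither gene's groups overlapped, Col8a1 being low and Col4a6 high in knockdown. Col10a1, a chain of growth-plate cartilage, had the most positive value of the 74 genes, with 6.66, 6.51 and 7.28 in knockdown and 6.20, 6.10, 6.54 and 5.50 in control libraries (log2 fold change 0.73, 95% CI 0.13 to 1.34; limma, adjusted p = 0.189). Its groups overlapped, and the difference was 0.31 within the libraries titled G but 1.78 within the CB6 pair.

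Among 9 fibril-associated collagens, which sit on the surface of fibrils, none passed and the median log2 fold change was -0.07. Col16a1 had 8.52, 8.91 and 8.91 in knockdown and 9.36, 9.09, 9.11 and 9.09 in control libraries (log2 fold change -0.38; limma, adjusted p = 0.138). Col20a1 had 8.18, 8.23 and 8.30 against 8.47, 8.38, 8.28 and 8.33, with overlapping groups. The 4 transmembrane collagens ranged from -0.03 (Col17a1) to 0.29 (Col25a1). Col25a1 had 6.42, 6.99 and 6.94 in knockdown and 6.74, 6.37, 6.57 and 6.29 in control libraries. Col13a1 had 7.97, 7.92 and 8.00 against 7.56, 8.07, 7.80 and 7.73, so that groups overlapped for both.

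Multiplexins are collagens of basement membrane zones whose end fragments are known as inhibitors of vessel growth. Col15a1 had 8.57, 8.90 and 8.57 in knockdown and 9.34, 8.73, 9.38 and 9.40 in control libraries, where control replicate 2 fell among the knockdown values (log2 fold change -0.53; limma, adjusted p = 0.155). Without that control it passed at -0.69 (limma, adjusted p = 0.0168). Col18a1 had 12.08, 12.28 and 12.25 in knockdown and 12.17, 12.07, 12.64 and 12.25 in control libraries. Its log2 fold change was -0.08 (95% CI -0.37 to 0.21) and turned to 0.04 without control replicate 3.

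The 8 laminin chains outside the mature glomerular membrane were evenly split, 4 positive and 4 negative, and none passed. Lamb3, a beta chain of epithelial basement membranes, had 6.75, 6.63 and 6.76 in knockdown and 6.66, 6.47, 6.45 and 6.42 in control libraries, with overlap (log2 fold change 0.21, 95% CI -0.03 to 0.46). Lama3, an alpha chain of the same membranes, was at 0.01 (95% CI -0.21 to 0.22). Lama4 and Lama2, chains of vessel and mesenchymal basement membranes, were at -0.22 (95% CI -0.58 to 0.14) and -0.15 (95% CI -0.35 to 0.06). Lama1 and Lamb1, chains of the embryonic laminin-111, were at -0.19 (95% CI -0.46 to 0.08) and 0.12 (95% CI -0.02 to 0.27).

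Postn had the most negative log2 fold change after Col6a6. Periostin, its product, is a matricellular protein that binds collagen and is known to increase in injured kidney. Knockdown libraries held 9.15, 9.23 and 9.16 and control libraries 10.30, 9.32, 9.91 and 10.00. The knockdown values lay close together below all controls, while control replicate 2 stood far below the other controls. The log2 fold change was -0.70 (SE 0.20) and did not pass (limma, adjusted p = 0.0993). Postn passed in 1 of 15 alternative settings, at -0.89 without control replicate 2 (limma, adjusted p = 0.00754).

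Fibronectin and Sparc were measured with narrow intervals around 0. Fn1, a cell adhesion protein of interstitial matrix, had 8.98, 9.10 and 9.17 in knockdown and 8.99, 9.11, 9.14 and 8.96 in control libraries (log2 fold change 0.03, 95% CI -0.16 to 0.22). Sparc, a collagen-binding matricellular protein, was at 0.00 (95% CI -0.26 to 0.25). Dcn, a small proteoglycan on collagen fibrils and a marker of fibroblasts, had 6.78, 7.44 and 7.04 in knockdown and 6.72, 6.81, 7.04 and 6.87 in control libraries, with overlap (log2 fold change 0.23, 95% CI -0.15 to 0.61).

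No metalloproteinase of the Mmp family passed, and for each of the 8 genes the groups overlapped. Of 4 secreted enzymes, the gelatinase Mmp2 had 10.09, 10.10 and 9.99 in knockdown and 10.07, 9.82, 10.18 and 10.12 in control libraries (log2 fold change 0.01, 95% CI -0.20 to 0.22). Mmp28 had 6.97, 7.25 and 7.19 against 7.40, 7.05, 7.19 and 7.16 (log2 fold change -0.06, 95% CI -0.34 to 0.22). Mmp11 had 8.20, 8.03 and 8.32 against 7.96, 8.36, 8.28 and 8.01 (log2 fold change 0.03, 95% CI -0.27 to 0.33), and 155 of its exonic bases overlap Chchd10 on the opposite strand. The secreted enzymes thus had intervals within 0.35 of 0 on the log2 scale.

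Mmp14, the membrane-type enzyme that activates Mmp2, had 8.16, 8.95 and 8.84 in knockdown and 8.88, 8.86, 9.03 and 8.72 in control libraries. Knockdown replicate 1 alone was below the rest, and the log2 fold change of -0.23 (95% CI -0.64 to 0.19) turned to 0.02 without it. Mmp15 had 5.82, 6.54 and 5.63 against 6.10, 6.00, 6.61 and 6.81, the most negative value of the family but a wide interval (log2 fold change -0.38, 95% CI -0.99 to 0.23). Its difference was -0.05 within the libraries titled G and -1.18 within the CB6 pair.

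The Adamts genes of proteoglycan-cutting enzymes all had negative log2 fold changes, 5 of 5 with a median of -0.29, and none passed. Adamts1 had 11.26, 11.65 and 11.31 in knockdown and 12.12, 11.61, 11.86 and 12.10 in control libraries, with overlap through control replicate 2 (log2 fold change -0.52; limma, adjusted p = 0.0914). It passed at -0.62 without that control (limma, adjusted p = 0.0327). Adamts15 had 5.62, 5.54 and 5.52 in knockdown and 6.00, 6.02, 5.95 and 6.14 in control libraries, well separated but low in the tables (log2 fold change -0.47; limma, adjusted p = 0.0532). It passed when the fit had no intensity trend (limma, adjusted p = 0.0197). Adamts5, the neighbour of Adamts1 on chromosome 16, was at -0.22 (95% CI -0.49 to 0.06), Adamts20 at -0.29 (95% CI -0.64 to 0.06) and Adamts9 at -0.09 (95% CI -0.27 to 0.09).

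None of the 3 procollagen N-proteinases passed. Adamts3 had 7.11, 7.37 and 7.13 in knockdown and 6.95, 6.93, 6.90 and 6.97 in control libraries, with every knockdown library above every control (log2 fold change 0.27, 95% CI 0.03 to 0.51; limma, adjusted p = 0.225). Adamts2 had 7.53, 7.49 and 7.31 against 7.39, 7.33, 7.18 and 7.47, with overlap (log2 fold change 0.10, 95% CI -0.16 to 0.35). Adamts14 was at -0.01 (95% CI -0.35 to 0.33). Among 6 other Adamts genes, Adamts12 had 8.45, 8.28 and 8.33 in knockdown and 8.67, 8.46, 8.51 and 8.62 in control libraries, barely apart (log2 fold change -0.21; limma, adjusted p = 0.268). Adamts16 had 7.17, 6.98 and 6.96 against 7.21, 7.11, 7.07 and 7.29 and overlapped.

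Timp3 was the inhibitor that fell. Its product binds the matrix and blocks Mmp, Adamts and Adam enzymes. Knockdown libraries held 15.94, 15.84 and 16.05, and control libraries 16.38, 16.38, 16.38 and 16.32. Every knockdown library was lower than every control. Mean log2 expression was 16.37 ± 0.03 (SD, n = 4) for controls against 15.94 ± 0.10 (SD, n = 3) for knockdown, giving a log2 fold change of -0.42 (SE 0.09, 95% CI -0.64 to -0.21) or 1.34-fold lower, at the edge of the threshold (limma, adjusted p = 0.0499). It was -0.49 within the libraries titled G and -0.28 within the CB6 pair. With title style as a covariate Timp3 was not called (limma, adjusted p = 0.143), nor without the CB6 pair (limma, adjusted p = 0.348), nor with any of the 7 libraries left out in turn, where the log2 fold change ran from -0.48 to -0.37.

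The 3 control libraries titled G held an identical Timp3 value, as was the case for 2 genes in the tables. The control SD of 0.03 therefore holds 3 tied values.

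Timp3 lies on GRCm38 chromosome 10 (86300372 to 86349506, plus strand) inside Syn3 (86055125 to 86498896, minus strand), and 1733 exonic bases are shared between these genes on opposite strands. Syn3, which encodes a synapsin of nerve terminals and is no member of the matrix genes, fell by 0.90 on the log2 scale. It had 9.77, 9.73 and 9.86 in knockdown and 10.69, 10.60, 10.71 and 10.73 in control libraries (limma, adjusted p = 0.000313), and passed in each of the 15 alternative settings. Whether the counting used strand is not given in the sources used here, and without strand, reads from the shared bases cannot be told apart between these genes. A window of 150 bases upstream of Timp3, at chr10:86300222-86300371 on the plus strand of GRCm38.p6, from RefSeq, is shown because both genes share this locus. It held none of the 3 motifs, but its last base lay 41 bases before the RefSeq start, and the bases between were not searched.
Timp3: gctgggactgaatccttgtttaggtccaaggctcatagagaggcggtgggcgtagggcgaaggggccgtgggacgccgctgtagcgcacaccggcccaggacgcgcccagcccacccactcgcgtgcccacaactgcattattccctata

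Timp2, a soluble inhibitor that also helps Mmp14 activate Mmp2, had 12.22, 12.50 and 12.54 in knockdown and 12.76, 12.32, 12.64 and 12.44 in control libraries. The groups overlapped (log2 fold change -0.12, 95% CI -0.39 to 0.15). The within-library difference between Timp3 and Timp2 was 3.83 ± 0.19 (SD, n = 4) for controls against 3.52 ± 0.19 (SD, n = 3) for knockdown (two-sided exact permutation p = 0.114, also adjusted over the 3 pairs). Col4a3bp, the ceramide transfer gene, had 11.45, 11.49 and 11.44 against 11.55, 11.43, 11.36 and 11.47 (log2 fold change 0.01, 95% CI -0.12 to 0.14).

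**Figure D3:**
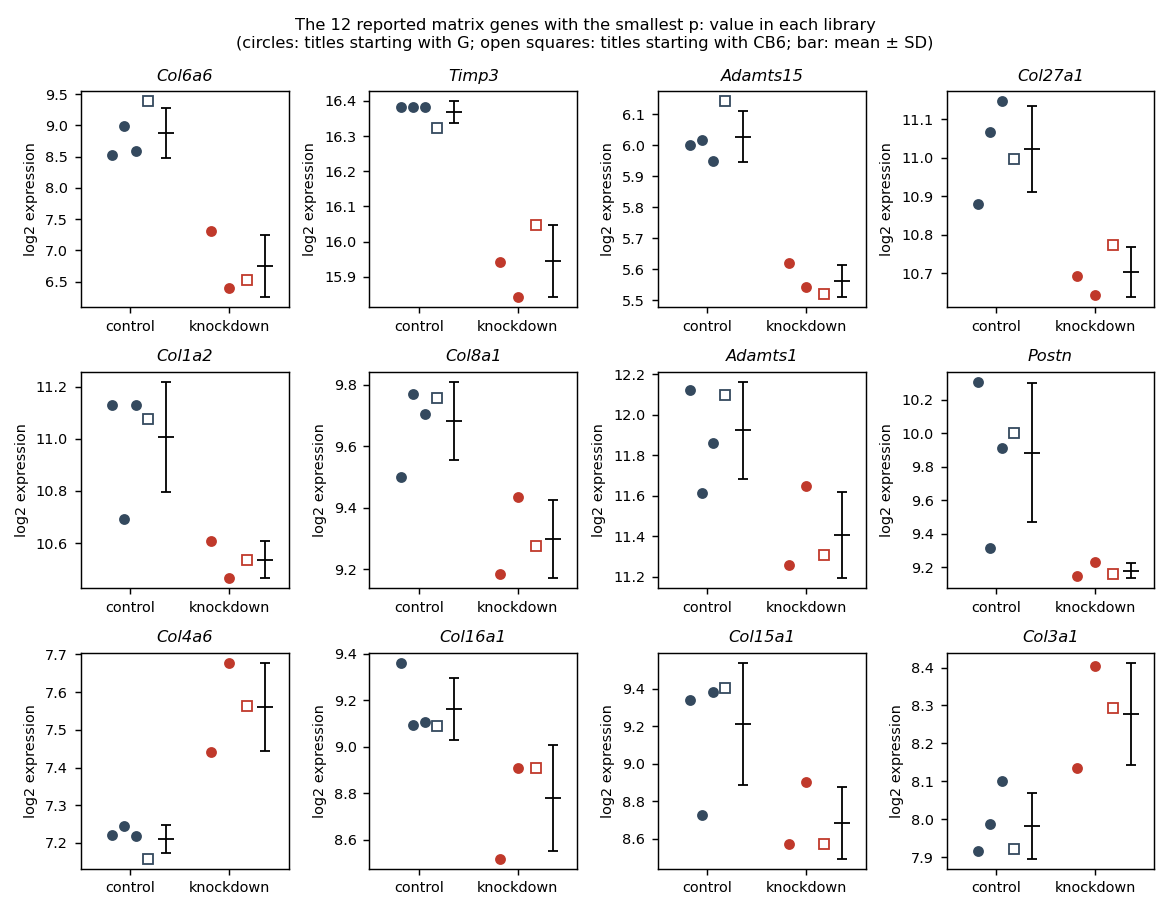
Log2 expression (vertical axis, its own range in each panel, not starting at 0) in each control and knockdown library for the 12 reported matrix genes with the smallest p, with mean ± SD. Groups do not overlap except for Adamts1 and Col15a1. Col4a6 and Col3a1 are higher in knockdown and the other genes shown are lower. A low control replicate 2 (the second control from the left) stands near the knockdown values for Col1a2, Postn, Adamts1 and Col15a1.

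In 6 lists of other matrix genes, 7 of 90 measured genes passed, 6 lower and 1 higher, a share of 7.78% against 3.02% of all genes; these lists were chosen with results known, so nothing particular to them is read from it. Of 20 genes of collagen modification, folding and crosslinking, P3h2, a prolyl 3-hydroxylase, fell, with 11.33, 11.29 and 11.32 in knockdown and 11.56, 11.52, 11.62 and 11.61 in control libraries (log2 fold change -0.26; limma, adjusted p = 0.0289). None of the list rose. Of 9 genes of procollagen processing and collagen uptake, Bmp1, the procollagen C-proteinase, rose, with 9.47, 9.37 and 9.29 in knockdown and 9.05, 8.80, 8.87 and 8.94 in control libraries (log2 fold change 0.46; limma, adjusted p = 0.0291). The medians over these lists were -0.03 and -0.09. Neither P3h2 nor Bmp1 was called when title style entered the fit or when the CB6 pair was left out.

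Of 28 other matrix glycoproteins and proteoglycans, 2 fell and none rose (median -0.09). Bgn, the small proteoglycan biglycan, had 11.81, 11.98 and 11.91 in knockdown and 12.44, 12.14, 12.47 and 12.43 in control libraries (log2 fold change -0.47; limma, adjusted p = 0.0301). Fras1, a basement membrane protein of epithelial adhesion, had 10.24, 10.26 and 10.48 against 10.65, 10.79, 10.92 and 10.66 (log2 fold change -0.43; limma, adjusted p = 0.0404). Both were lower in every knockdown library.

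Serpine2, an inhibitor of serine proteases, fell by 0.39 on the log2 scale among 19 genes of the pericellular protease system, as the 1 gene of that list past the threshold. Adamtsl2, which resembles Adamts enzymes but lacks the protease domain, fell by 0.61 among 6 Adamts-like genes. Of the 8 basement membrane chains left out of the matrix genes, Col4a3 fell by 0.63 (limma, adjusted p = 0.0364). Bgn, Fras1, Serpine2, Adamtsl2 and Col4a3 were not called once title style was a covariate, nor without the CB6 pair.

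The defining markers of the labelled tissue were present: Podxl, Pecam1 and Pdgfrb had values between 12.00 and 17.2 in every library. They do not show that the libraries held glomerular RNA only. The 16 proximal tubule markers were present in every library too. Their summed level ran from 17.81 to 18.15 (log2 of the sum) in knockdown and from 18.03 to 18.40 in control libraries. The share of tubule RNA was not measured. Of 9 measured interstitial fibroblast markers, 3 were called lower and none higher: Ly6a (-0.74), Pi16 (-0.48) and Dpep1 (-1.32), the last also a known brush border enzyme of the proximal tubule. Dcn and Col1a1 are the 2 matrix genes in that list and did not pass. The summed level of the list ran from 13.77 to 13.91 (log2 of the sum) in knockdown and from 14.09 to 14.28 in control libraries. None was listed at 0, but Pdgfra, a defining marker of fibroblasts, is 1 of the 107 genes with filled-in values in the libraries titled G and is given no weight. Of 13 mesangial markers, 2 were called lower, and their summed level ran from 15.19 to 15.40 in knockdown and from 15.33 to 15.75 in control libraries. Of 13 podocyte markers, 2 were called lower and none higher (median log2 fold change -0.24), with a summed level from 17.92 to 18.18 in knockdown and from 17.74 to 18.18 in control libraries. Of 12 glomerular endothelial markers, none was called, 11 had a negative value (median -0.23), and the summed level ran from 16.49 to 16.82 in knockdown and from 16.63 to 17.14 in control libraries. Proximal tubule markers, 16 in number, had 7 called lower and 1 higher (median log2 fold change -0.39). The lists that follow had no gene called lower. Of 9 smooth muscle and renin cell markers, none was called and 6 had a positive value (median 0.24). Of 12 markers of distal nephron and collecting duct, 2 were called higher (median 0.21). Of 8 parietal epithelial markers 1 was called higher (median -0.04), and of 8 immune markers none was called (median 0.06). The part of RNA from these cell types in the matrix results was not tested.

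Control replicate 2 was the lowest control for 22 of the 44 matrix genes with a negative log2 fold change (50%), against 31.4% of all genes with a negative value. It also had the lowest control mean over mesangial (10.81 against 11.06 to 11.19), podocyte (12.51 against 12.84 to 12.97) and glomerular endothelial markers (11.98 against 12.11 to 12.37). Whether these marker levels and the matrix genes moved for 1 reason was not tested. Without control replicate 2, 5 matrix genes passed (6.76%) and all were lower: Col6a6, Col1a2, Adamts1, Postn and Col15a1. In that setting 480 of all genes passed (3.7%), 317 of them lower, the most of any fit that left out 1 library. Control replicate 2 was the lowest control for Col1a2, Adamts1, Postn and Col15a1, so that leaving it out widens their differences by construction. None of these genes was called with title style as a covariate or without the CB6 pair. Col27a1, Col8a1 and Adamts15 were not called in those settings either.

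**Figure D4:**
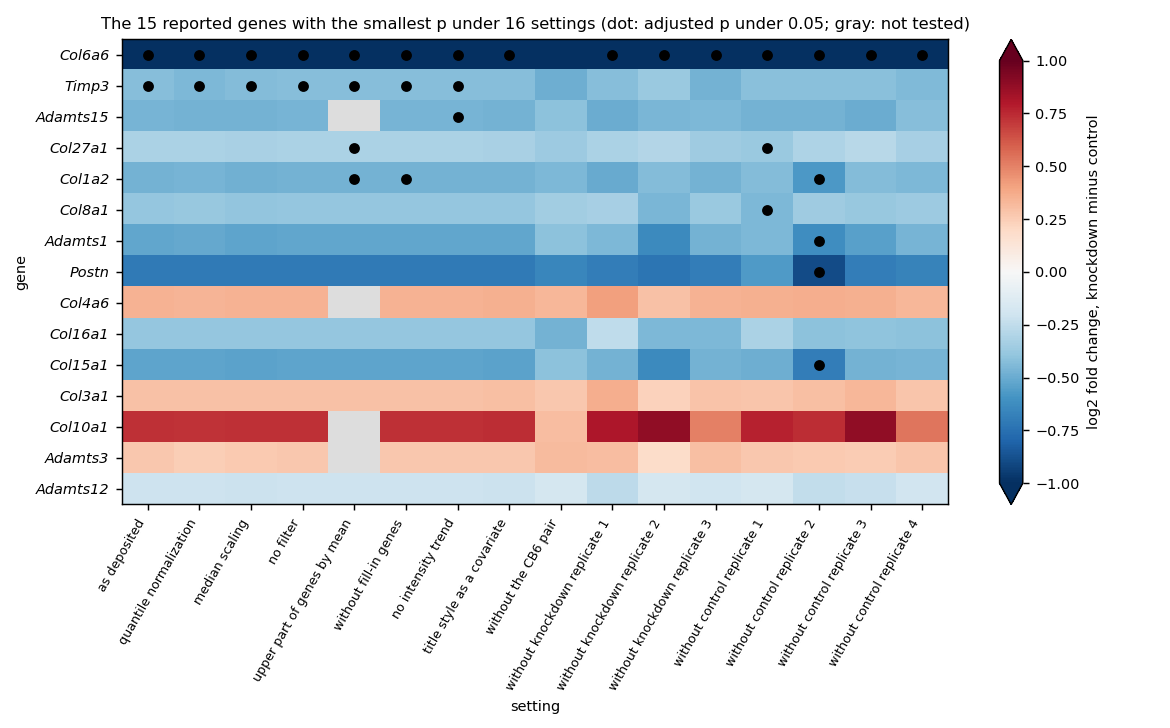
Log2 fold change (color, capped at 1 in either direction) of the 15 reported matrix genes with the smallest p (rows) in the values as deposited and under 15 alternative settings (columns); a black dot marks an adjusted p under 0.05 and gray a gene not tested there. Colors keep their sign along every row shown, while dots run along most of the Col6a6 row and 7 of 16 columns of the Timp3 row.

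Neighbouring genes were compared because collagen genes often lie in pairs. Col3a1 and Col5a2 on chromosome 1, 24614 bases apart, had log2 fold changes of 0.30 and -0.10. Col6a2 and Col6a1 on chromosome 10, 85161 bases apart, had -0.10 and 0.20, and Col4a6 and the left-out Col4a5 on the X chromosome, 1308 bases apart, had 0.35 and 0.02. Adamts1 and Adamts5, 53059 bases apart on chromosome 16, had -0.52 and -0.22. Col9a1 and Col19a1, 9205 bases apart on chromosome 1, had -0.07 and 0.05. None of these genes passed. Among pairs of left-out chains, Col4a3 and Col4a4 had -0.63 and -0.34, of which Col4a3 passed, and Col4a1 and Col4a2 had -0.33 and -0.30. Signs were thus shared in some pairs and not in others.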

How the data were processed

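RNA from glomeruli isolated by bead perfusion, magnet and sieving was sequenced in 7 libraries, 3 labelled knockdown and 4 control. The authors deposited 1 table of log2 expression per library, normalized between libraries before deposit, as the equal library medians show; no source used here names the method or the log base. Reads were aligned with BWA to mm10, per the submitters' processing notes. All 12958 symbols were fitted with limma 3.58.1 (R 4.3.3) with an intensity trend, knockdown against control, and p-values were adjusted over all of them by Benjamini-Hochberg with a threshold of 0.05. Genes had to exceed the lowest tabulated value in 3 or more libraries, which left out 0 genes. The fit was tested on simulated data.

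Genes are given with all values if they passed, if they were among the 15 with the smallest p, or among the 2 with the smallest p of their class. For 1 gene chosen this way no values are reported here, although it stays in the counts. Other genes are given by intervals or ranges; Col6a5, Col1a1, Fn1, Mmp2, Syn3 and Col4a3bp were added to show a contrast or complete a class. Of the other lists, up to 4 genes past the threshold are named. The genes and lists were chosen with earlier results of these data known. Differences between 2 genes were compared by exact permutation of all libraries, without regard to title style. The permutation p-values thus take the CB6 libraries as independent, although their deviations from the group means mirror each other. Alternatives were other normalization, scaling, filters and variance models, title style as a covariate, and fits without the CB6 pair or each library. Positions are from GENCODE M21 on GRCm38.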

Additional observations from a re-analysis of the deposited data

Results flagged for a closer look

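Of the 74 matrix genes, 7 had 1 control library set apart from the other controls. Its gap to the nearest control, as a share of the range of the 4 controls, was above Dixon's 95% critical value. For independent and normally distributed values, chance gives this for about 1 gene in 20. Control replicate 4 is a CB6 library, and the share of all genes flagged is not given here. Nothing particular to the matrix genes is therefore read from the 7. Control replicate 2 was the low library for Col1a2 (10.69, nearest control 11.08), Col15a1 (8.73, nearest 9.34) and Lama2 (8.81, nearest 8.98). Control replicate 1 was high for Col16a1 (9.36, nearest 9.11), and control replicate 3 was high for Col11a2 (9.38, nearest 9.17). Control replicate 4 was low for Timp3 (16.32, the other controls being identical at 16.38) and for Adamts10 (4.94, nearest 4.97), a gene with filled-in values.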

How the results depend on the processing

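Of all genes, 391 passed as deposited, 191 with title style as a covariate, 40 without the CB6 pair, 846 at an adjusted p of 0.1, 124 at 0.01, and 134 to 480 with 1 library left out in turn (limma). Of the 74 matrix genes 2 passed, against 1 with title style, 0 without the CB6 pair, 8 at 0.1, 1 at 0.01, and 1 to 5 with 1 library left out. When only the upper part of genes by mean was tested, 45 matrix genes remained and 4 of them passed (8.89%, against 4.39% of all genes tested there). Where all 74 genes were tested, their median stayed between -0.06 and -0.02. It was -0.08 over the 45 genes in the upper part by mean. Collagen modification, pericellular proteases and other glycoproteins had 0 calls with no intensity trend, with title style, without the CB6 pair and at 0.01, and 0 to 1, 0 to 2 and 0 to 3 with 1 library left out. Procollagen processing had 0 with title style, without the CB6 pair and at 0.01, and 0 to 1 with 1 library left out. Adamts-like genes had 0 in the upper part of genes, with title style, without the CB6 pair and at 0.01, and 0 to 1 with 1 library left out. The left-out basement membrane chains had 2 in the upper part of genes, without filled-in genes and at 0.1, then 0 with no intensity trend, with title style, without the CB6 pair and at 0.01, and 0 to 3 with 1 library left out. The cause of these changes was not tested.

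In at least 1 alternative the sign turned for 25 of the 74 genes. Among the 31 genes chosen by a call or by smallest p, overall or in their class, 5 turned. Mmp14, at -0.23 as deposited, is among these 5. Without the CB6 pair, Mmp11 was at -0.084. With 1 library left out in turn, the log2 fold change ran from -0.15 to 0.038 for Col18a1, from -0.036 to 0.107 for Mmp11, from -0.377 to 0.021 for Mmp14, from -0.12 to 0.022 for Mmp28 and from -0.024 to 0.039 for Col4a3bp. Of these, Col18a1 turned without control replicate 3, Mmp14 without knockdown replicate 1, Mmp28 without knockdown replicate 1 or control replicate 1, and Mmp11 without either CB6 library or without control replicate 1. Of the 74 genes 49 kept 1 sign in all 15 alternatives. No paired analysis was possible because the labels give the groups no shared replicate numbers. Depth is unknown, so counting error could not be given.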
